A study of Rattus rattus with 24 samples.

Results

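The G2/M and mitosis genes are 53 genes chosen by function, from the cyclins and kinases that start mitosis to the proteins that complete cell division. Of the 53, 45 had a probe set that the array annotation pairs with that gene alone, among 14217 genes so measured. Each was read from its probe set with the highest mean over all arrays. *Anln* and *Ckap2* were found only on probe sets shared with another gene and were left out. *Cdc25c*, *Nek2*, *Kif4a*, *Ndc80*, *Ncapg* and *Tpx2* were not matched in the annotation used here.

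The arrays came from primary cultures of rat oligodendrocyte precursor cells (OPCs), the dividing cells that give rise to myelinating oligodendrocytes. The cells were taken from the cerebral cortex of pups aged 4 to 7 days, selected with magnetic beads against the surface marker A2B5 and expanded in medium with 20 ng/ml PDGF, a growth factor for these cells. They were then kept in SATO medium with thyroid hormone (T3, 45 nM), with the antipsychotic drug quetiapine (1 µM), with both agents at those doses, called the combination here, or with neither. Control cultures received the vehicle, 0.1% DMSO. RNA was taken after 48 hours or 96 hours, and fresh medium with the same agents was added at 48 hours. The 4 treatments at 2 times made 8 groups of 3 biological replicates, 24 arrays in all, and the design text says that each of the 3 biological replicates gave a sample of every condition. Per the study's text, all cultures, controls included, also received the small amount of T3 in the medium's supplement, and the study's text names PDGF for the expansion and not for the treatment medium. The labels name the species as Rattus rattus and the study's methods name Sprague Dawley rats.

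In the G2 phase, cyclin A and cyclin B bind the kinase Cdk1, and its activation drives the cell into mitosis. The spindle checkpoint then holds the chromosomes until each kinetochore is attached, after which the anaphase-promoting complex, with Cdc20, releases the sister chromatids and the central spindle proteins guide cytokinesis. OPCs divide while PDGF is present and leave the cell cycle as they differentiate. Transcripts of many of these genes are most abundant in G2 and mitosis.

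Expression was measured as log2 values after robust multi-array averaging (RMA), and array medians over all probe sets lay between 6.43 and 6.51. A difference of 1 on this scale is a doubling of the signal. *Pdgfra*, the PDGF receptor that marks OPCs, read 12.60, 12.54 and 12.70 in the controls at 48 hours, and the mean log2 value of the 7 measured OPC markers ranged from 10.4 to 11.5 over the 24 arrays. Astrocyte markers (9 genes) were as high, with means of 10.2 to 11.6, and neuron markers (8 genes) had means of 7.73 to 8.67. Microglia markers (10 genes) and vascular cell and fibroblast markers (9 genes) had means of 5.02 to 6.40 and 4.97 to 5.25. The control array of replicate 2 at 48 hours had the highest microglia mean, 6.40 against 5.10 and 5.27 in the other 2 controls of that time. In these bulk samples, fewer cells in mitosis and less mRNA per cell cannot be told apart.

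The mean of the control cultures was the highest of the 4 treatments for all 45 members at both times. The combination had the lowest mean for 42 of 45 members at 48 hours and for 44 of 45 at 96 hours, where *Cdc25b* was the exception and was lowest with T3. T3 lay below quetiapine for 41 of 45 members at 48 hours and for 45 of 45 at 96 hours. The order of group means was therefore control, quetiapine, T3, combination for most members. Neighbours in it were separated by the main limma test for none of the 45 members at either time. With the replicate number as a block, at most 5 members passed in a comparison of neighbours, as given below.

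**Figure D1:**
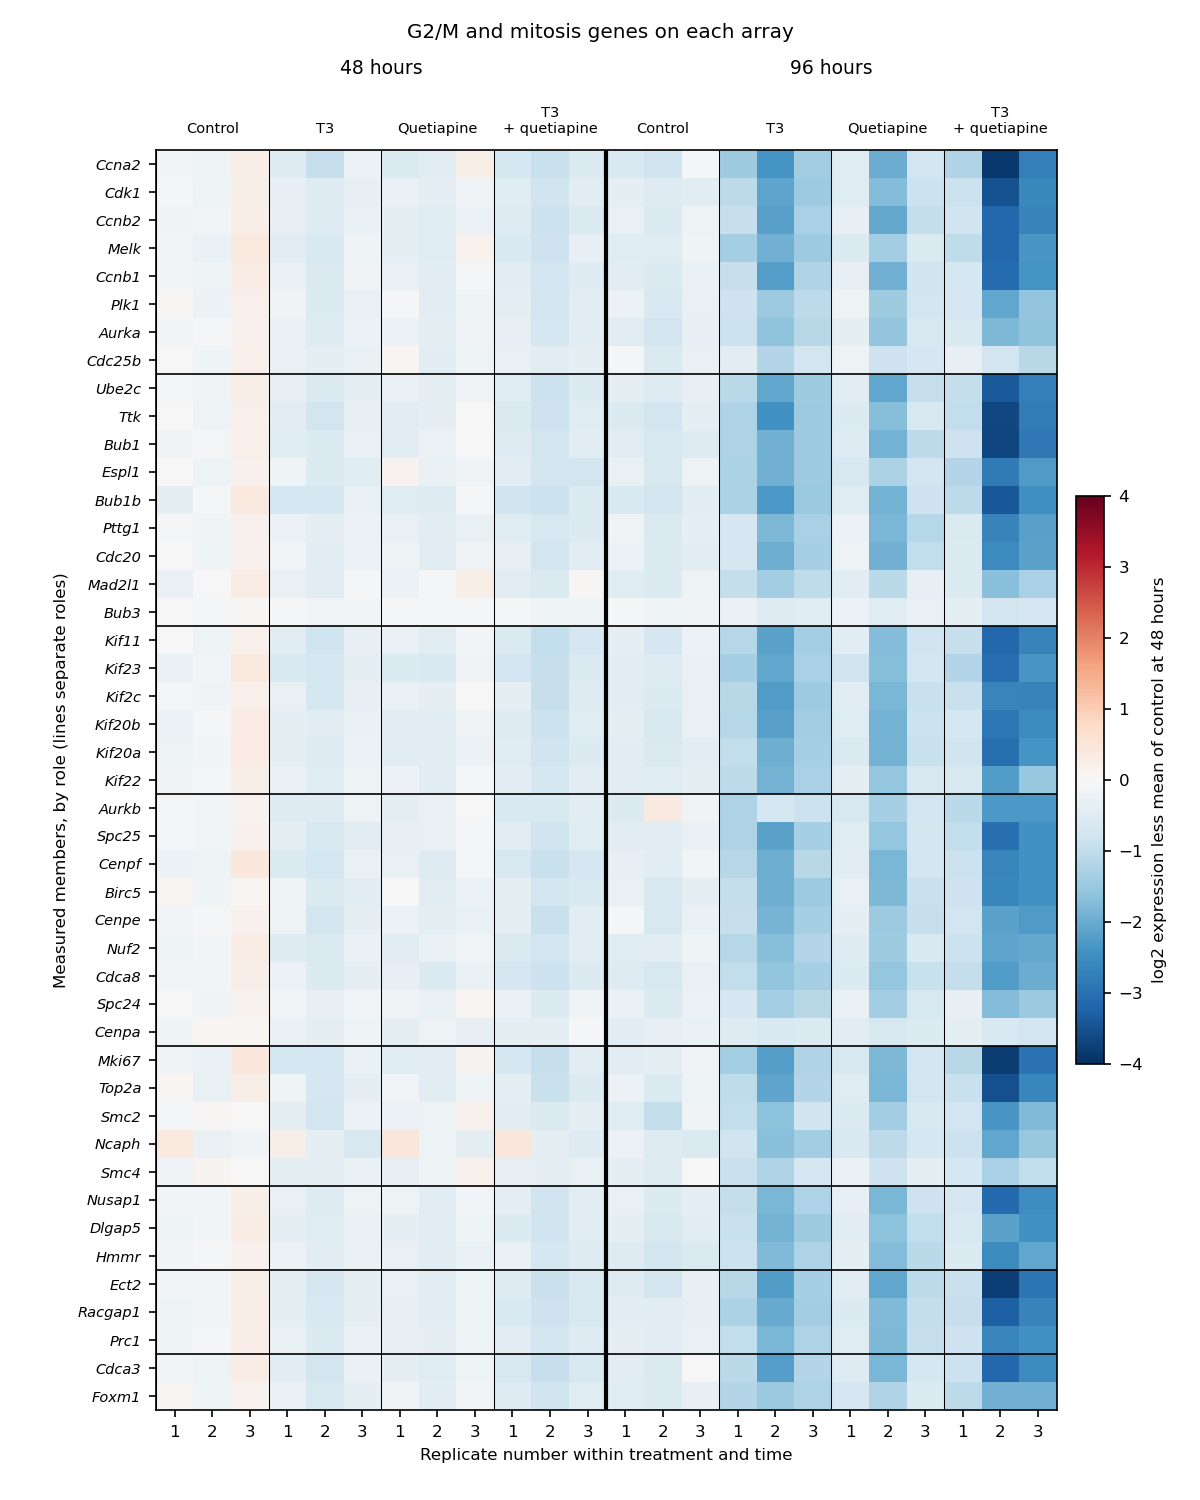
Log2 expression of the 45 measured members (rows, grouped by role) on each of the 24 arrays (columns, by treatment, time and replicate number), as the difference from the mean of the 3 control arrays at 48 hours. Blue marks lower values. The columns of replicates 2 and 3 of the combination at 96 hours are the darkest for most members, and replicate 1 of that group is paler in all 45 rows.

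At 48 hours the combination lowered 25 of the 45 members and raised none (limma, adjusted p under 0.05), against 2.87% of the 31042 probe sets tested that were lower by the same rule. The median change of the 45 members was -0.58 (a 1.49-fold decrease), with a range from -0.75 to -0.13. The 3 combination arrays lay below the 3 control arrays, with no overlap, for 41 of 45 members, against 11.5% of probe sets. With the replicate number as a block, which removes the differences between the 3 replicate numbers, 43 of 45 passed, against 12.1% of probe sets. With all 24 arrays in 1 fit, which shares the wider spread of the 96-hour arrays, 0 of 45 passed. The count of 25 fell to 2 without replicate 2 of the combination or without replicate 3 of the control, to 5 without replicate 3 of the combination and to 15 without replicate 2 of the control.

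By role, the combination at 48 hours lowered all 3 cytokinesis genes, both genes of transcription and other, 2 of 3 spindle assembly genes, 6 of 9 centromere, kinetochore and passenger genes, 4 of 6 kinesins, 5 of 9 checkpoint and anaphase genes, 3 of 8 kinases, cyclins and phosphatases, and 0 of 5 condensin and chromosome structure genes. In that last role, 4 of the 5 had an unadjusted p under 0.05 in limma and 4 passed with the replicate block. Over all probe sets 2.87% were called lower, or 12.1% with the block. *Racgap1*, a subunit of the centralspindlin complex at the cell's midzone, had log2 values of 10.43, 10.48 and 10.87 in the controls and 9.97, 9.78 and 9.95 with the combination. Every treated culture was below every control. The change was -0.70 (SE 0.124, limma adjusted p = 0.0105), and *Racgap1* was the only 1 of the 17 named members called in this comparison that passed whichever single array was left out. It did not pass with all 24 arrays in 1 fit (limma adjusted p = 0.355).

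Single agents gave smaller differences at 48 hours. With T3, all 45 members lay below the control mean, with a median change of -0.40 (1.32-fold) and a range from -0.56 to -0.09, but none passed the limma test, against 0.254% of probe sets called lower. At an unadjusted p under 0.05 there were 38, and with the replicate block 39 of 45 passed, against 5.51% of probe sets. The share of all probe sets at an unadjusted p under 0.05 was not counted, so counts by that rule stand without it. The T3 and control arrays did not overlap for 33 members, against 8.44% of probe sets. With quetiapine the median change was -0.26 (1.20-fold), again with all 45 below the control mean. None passed the limma test, against 0.029% of probe sets called lower, 13 had an unadjusted p under 0.05 and 5 passed with the block, against 1.88%. The groups did not overlap for 11 members, against 4.61% of probe sets.

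Within the replicate numbers, 44 of 45 members were lower than in the control of the same number in all 3 replicates with T3 at 48 hours (23.5% of probe sets were), 39 with quetiapine (18.2%) and 44 with the combination (24.1%). The median change of the combination was -0.39, -0.64 and -0.72 in replicates 1, 2 and 3. Replicate 1 was thus the least changed at this time as well.

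At 96 hours the combination lowered 34 of 45 members, and raised none (limma, adjusted p under 0.05), against 15.7% of probe sets called lower. Of the 34, 33 fell by over 1.5-fold, as 8.37% of probe sets did. The median change was -1.60, a 3.03-fold decrease, and the changes ran from -2.30 for *Mki67* to -0.24 for *Cenpa*. With the replicate block all 45 passed, against 22.1% of probe sets. The combination and control arrays did not overlap for 37 members, against 20.5% of probe sets. The count of 34 fell to 7 without replicate 2 of the combination, to 9 without its replicate 3, to 11 without replicate 3 of the control and to 15 without replicate 1 of the control, and it was 44 without replicate 1 of the combination. These and the other counts with an array left out come from the fit without the block. The share of all probe sets was not counted for them.

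The combination arrays at 96 hours did not form 1 level. Replicate 1 had the highest value of the 3 for 45 of 45 members, above the next by 0.22 to 2.04 with a median of 1.53. *Mki67*, which encodes the proliferation marker Ki-67, read 9.24, 9.27 and 9.50 in the controls, 8.31, 7.46 and 8.46 with T3, 9.01, 7.86 and 8.90 with quetiapine and 8.55, 5.85 and 6.70 with the combination. All treated cultures were below all controls, and replicate 1 of the combination stood apart from the other 2. The change with the combination was -2.30 (SE 0.565, limma adjusted p = 0.0101), a 4.94-fold decrease.

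**Figure D2:**
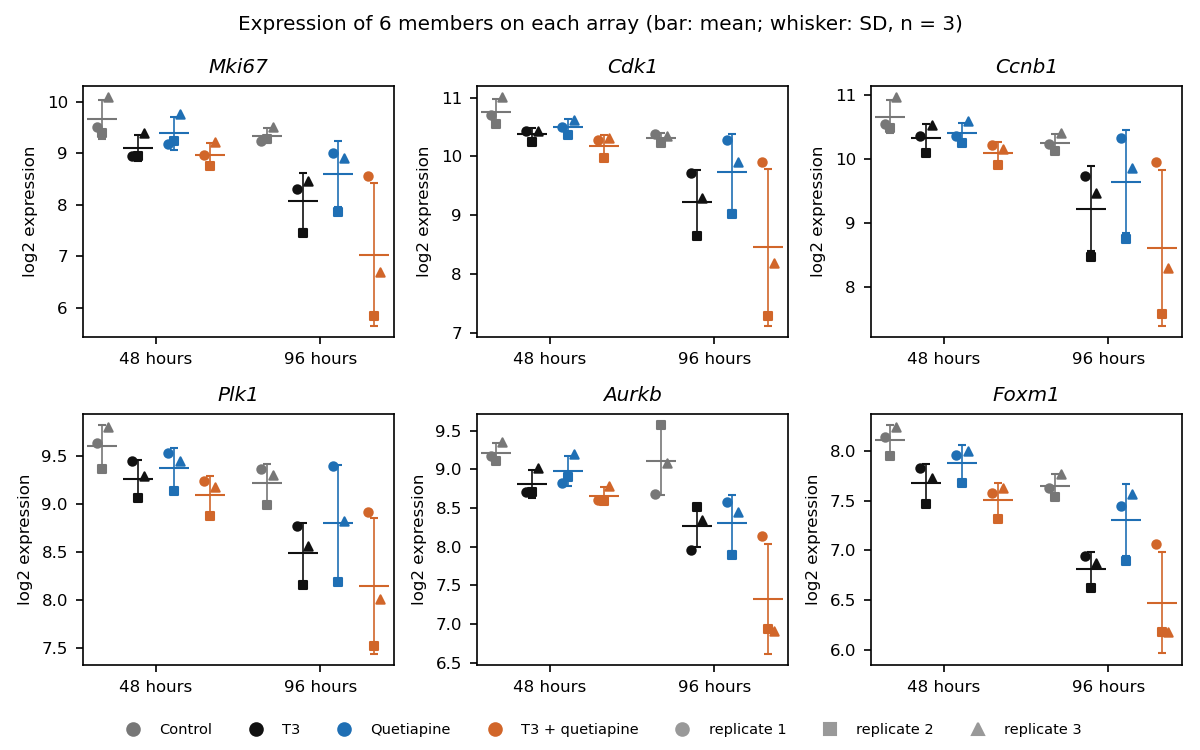
Log2 expression of *Mki67*, *Cdk1*, *Ccnb1*, *Plk1*, *Aurkb* and *Foxm1* (y axis) on each array, by time and treatment (x axis). Symbols mark the replicate number, the wide bar the mean and the whisker the SD of 3 arrays. The combination at 96 hours has the lowest mean in each panel and spreads widely, for *Mki67* from 5.85 to 8.55.

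Kinases, cyclins and Cdc25 phosphatases drive the entry into mitosis, and 6 of the 8 measured fell with the combination at 96 hours. For this and the other roles at 96 hours, the share of all probe sets called lower was 15.7%. *Ccna2* (cyclin A2) changed most, with 9.40, 9.23 and 9.96 in the controls and 8.81, 6.15 and 7.27 with the combination (change -2.12, SE 0.591, limma adjusted p = 0.0192). *Cdk1*, the mitotic kinase, read 10.37, 10.24 and 10.35 in the controls, 9.72, 8.65 and 9.30 with T3, 10.28, 9.02 and 9.91 with quetiapine and 9.91, 7.28 and 8.18 with the combination. The control values of *Cdk1* lay close together, whereas those of the combination spread over more than 2 log2 units (change -1.86, SE 0.553, adjusted p = 0.0259). The B-type cyclins *Ccnb1* and *Ccnb2*, partners of Cdk1, fell by 1.65 (SE 0.563, adjusted p = 0.0472) and 1.84 (SE 0.578, adjusted p = 0.0333). *Plk1*, a kinase of mitotic entry and spindle formation, fell by 1.07 (SE 0.352, adjusted p = 0.0407). *Cdc25b*, a phosphatase that activates Cdk1, read 7.61, 7.07 and 7.37 in the controls and 7.34, 6.89 and 6.54 with the combination, and those groups overlapped. It did not pass in any comparison of a treatment with control (combination at 96 hours -0.43, adjusted p = 0.233, and 0.0232 with the block).

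Checkpoint and anaphase genes include the proteins that delay anaphase and those that release it, and 6 of 9 fell. *Ube2c*, the ubiquitin-conjugating enzyme of the anaphase-promoting complex, read 10.40, 10.25 and 10.45 in the controls and 9.83, 7.42 and 8.04 with the combination (change -1.94, SE 0.556, limma adjusted p = 0.0221). The checkpoint kinases *Ttk* and *Bub1* each fell by 1.93, with adjusted p of 0.0259 and 0.0268. *Espl1*, which encodes separase, the protease that opens cohesin, had the smallest adjusted p of the role, 0.0037. *Bub3*, a checkpoint protein, also passed with a change of only -0.48 (adjusted p = 0.0062), and its replicates lay close, at 11.58, 11.49 and 11.50 in the controls and 11.25, 10.93 and 10.97 with the combination. *Cdc20* and *Mad2l1* did not pass, with changes of -1.33 (adjusted p = 0.0822, 0.002 with the block) and -0.77 (adjusted p = 0.0525, 0.0063 with the block). With quetiapine at 48 hours *Mad2l1* was at -0.04.

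Of 6 kinesins, the microtubule motors that build and move the spindle, 5 fell with the combination at 96 hours. *Kif11*, the motor that pushes spindle poles apart, read 8.69, 8.41 and 8.85 in the controls and 8.16, 5.95 and 6.40 with the combination (change -1.81, SE 0.513, limma adjusted p = 0.0206). *Kif23*, the motor of centralspindlin, fell by 1.75 (SE 0.414, adjusted p = 0.0083), a call that held whichever array was left out. *Kif2c*, which takes microtubules apart at kinetochores, fell by 1.64 (adjusted p = 0.024). *Kif22*, a motor that binds chromosome arms, was at -1.05 and did not pass (adjusted p = 0.0652, 0.0033 with the block). All 6 kinesins had no overlap between the combination and the control arrays, against 20.5% of probe sets.

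Centromere, kinetochore and chromosomal passenger genes fell for 7 of 9. *Aurkb*, the kinase of the passenger complex, read 8.68, 9.57 and 9.09 in the controls and 8.14, 6.93 and 6.90 with the combination (change -1.79, SE 0.336, limma adjusted p = 0.0023). Its control of replicate 2 was the highest of the 12 arrays at 96 hours, and the call held without that array. *Spc25*, a subunit of the Ndc80 complex that grips microtubules, fell by 1.76 (SE 0.453, adjusted p = 0.0131). *Spc24*, its partner in that complex, did not pass, at -0.85 (adjusted p = 0.102, 0.0056 with the block). *Cenpf*, a kinetochore protein, fell by 1.69 (SE 0.462, adjusted p = 0.0176). *Cenpa*, the centromeric histone H3 variant, read 6.31, 6.41 and 6.47 in the controls and 6.33, 6.11 and 6.01 with the combination, which overlap, and had the smallest change of the 45 members (-0.24, adjusted p = 0.0768, 0.0492 with the block).

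Condensin and chromosome structure genes fell for 4 of 5. *Top2a*, the topoisomerase that untangles chromosomes, read 10.43, 10.09 and 10.45 in the controls and 9.77, 7.15 and 8.05 with the combination (change -2.0, SE 0.57, limma adjusted p = 0.0213). The condensin subunit *Smc2* was at -1.09 and did not pass (adjusted p = 0.0556, 0.002 with the block), with 8.36, 7.91 and 8.73 in the controls and 8.10, 6.52 and 7.10 with the combination. *Smc4* and *Ncaph*, its partners in condensin, passed with changes of -0.70 and -1.04.

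The spindle assembly genes passed for 1 of 3. *Nusap1*, a microtubule-binding protein of the spindle, read 10.10, 9.86 and 10.04 in the controls and 9.73, 7.27 and 7.90 with the combination (change -1.70, SE 0.545, limma adjusted p = 0.0368). *Dlgap5* and *Hmmr*, other spindle proteins, had changes of -1.24 (adjusted p = 0.0538) and -1.11 (adjusted p = 0.102), and both passed with the block, at 0.0032 and 0.0069. In replicate 1 *Hmmr* read 8.53 with the combination and 8.55 in the control.

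All 3 cytokinesis genes fell with the combination at 96 hours. *Ect2*, which activates the GTPase that forms the contractile ring, read 9.74, 9.53 and 9.91 in the controls and 9.35, 6.49 and 7.31 with the combination (change -2.01, SE 0.627, limma adjusted p = 0.0326). *Racgap1* fell by 1.90 (SE 0.498, adjusted p = 0.0141), and *Prc1*, which bundles the microtubules of the midzone, fell by 1.59 (SE 0.445, adjusted p = 0.0198). These 3 genes thus passed at both times.

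*Foxm1* encodes the transcription factor that activates many genes of G2 and mitosis. In the fit without the replicate block it was the only member that passed with a single agent. With the block, 39 members passed with T3 and 5 with quetiapine at 48 hours, and 38 with T3 at 96 hours. The log2 values of *Foxm1* at 96 hours were 7.63, 7.53 and 7.77 in the controls, 6.94, 6.62 and 6.88 with T3, 7.45, 6.90 and 7.57 with quetiapine and 7.06, 6.18 and 6.18 with the combination. T3 and the combination lay wholly below the controls, and quetiapine overlapped them. With T3 *Foxm1* fell by 0.83 (limma adjusted p = 0.0427), and this call was lost when any 1 of 7 arrays was left out, namely each control, each T3 array or replicate 1 of quetiapine, with adjusted p up to 0.156. With the combination it fell by 1.17 (SE 0.235, adjusted p = 0.0034), a call that held whichever array was left out. *Cdca3*, a cell division protein linked to protein turnover at mitosis, fell with the combination by 1.83 (SE 0.534, adjusted p = 0.024).

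**Figure D3:**
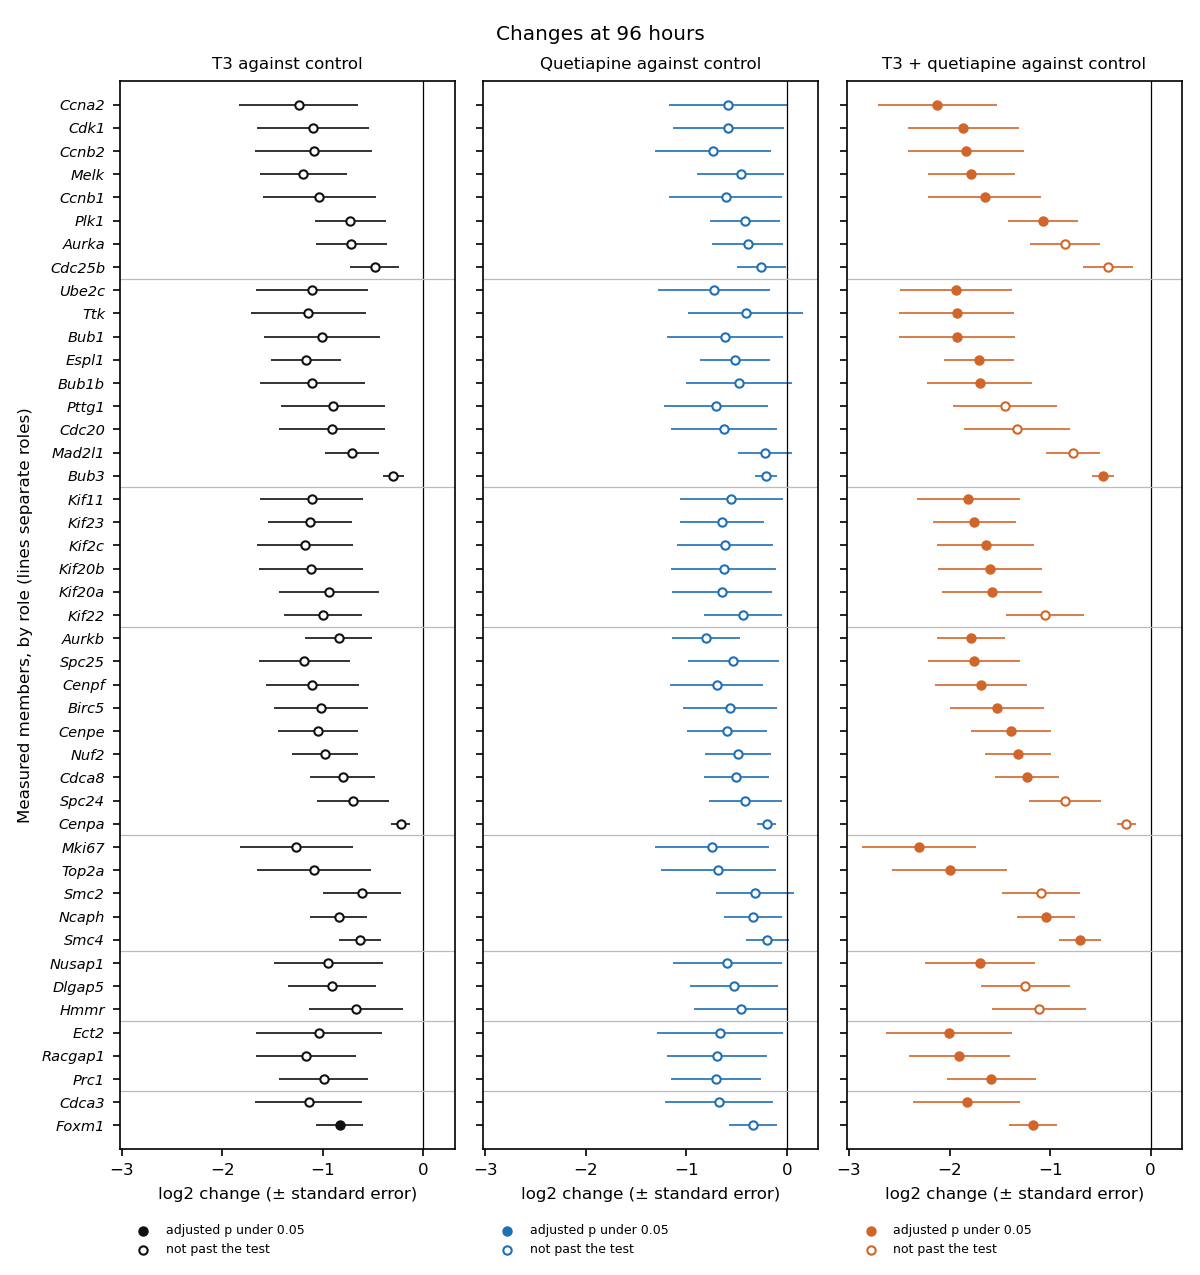
Log2 change from control at 96 hours (x axis, with the standard error of the limma fit) of each of the 45 members (y axis, by role) for T3, quetiapine and the combination. Filled points passed at an adjusted p under 0.05, which were 1, 0 and 34 members. The means of all members lie below 0.

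With T3 alone at 96 hours, the median change of the 45 members was -1.0, a 2.01-fold decrease, and the range was -1.26 to -0.23. *Foxm1* was the 1 member past the test, against 6.07% of probe sets called lower, although the T3 and control arrays did not overlap for 43 of 45 members, against 15.1% of probe sets. At an unadjusted p under 0.05 there were 20, and with the replicate block 38 of 45 passed, against 14.3% of probe sets. With all 24 arrays in 1 fit 14 passed, a fit for which the share of all probe sets was not counted. *Mki67* stood at -1.26 (SE 0.565, adjusted p = 0.19, 0.0446 with the block). The count of 1 became 14 without replicate 1 of the combination, whose group shares the estimate of spread, and 3 without its replicate 2. It was 0 without any 1 control array, replicate 2 or 3 of T3, or replicate 1 of quetiapine.

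Quetiapine alone at 96 hours gave a median change of -0.57 (1.49-fold), with all 45 members below the control mean and a range from -0.80 for *Aurkb* to -0.19. None passed the limma test, against 2.24% of probe sets called lower, 1 had an unadjusted p under 0.05 and 0 passed with the block, which called 9.26% of probe sets lower. The groups did not overlap for 10 of 45 members, against 11.2% of probe sets. Replicate 2 had the lowest value of the 3 quetiapine arrays for 45 of 45 members. *Ccnb1* shows this, with 10.23, 10.14 and 10.41 in the controls and 10.33, 8.75 and 9.87 with quetiapine, so that replicate 1 was level with the controls.

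The 3 replicate numbers separated at 96 hours. Against the control of the same number, the median change of the 45 members with T3 was -0.65, -1.37 and -0.97 in replicates 1, 2 and 3. With quetiapine it was -0.04, -1.15 and -0.52, with 32, 45 and 45 members below their own control. With the combination it was -0.45, -2.18 and -2.05, with 44, 45 and 45 members below. Replicate 1 had the smallest decrease under each of the 3 treatments. With T3, 45 members were lower in all 3 replicates, against 31.3% of probe sets. The combination gave 44, against 30.3%, and quetiapine 32, against 23.7%.

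**Figure D4:**
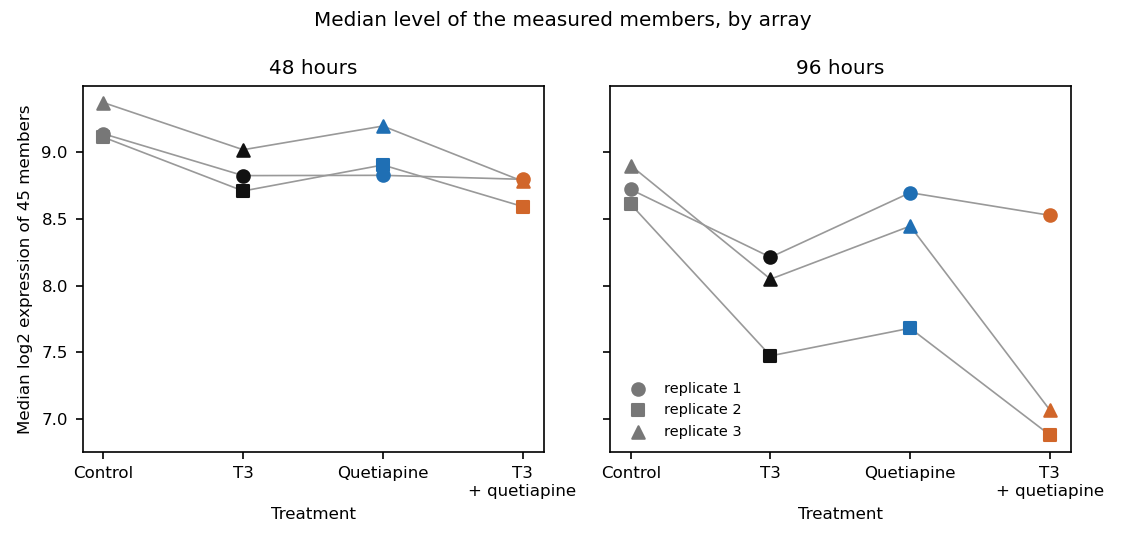
Median log2 expression of the 45 members (y axis) on each array, by treatment (x axis) at 48 and 96 hours. Grey lines join arrays of 1 replicate number. At 96 hours the line of replicate 1 stays near its control with quetiapine and with the combination, where the medians of the changes were -0.04 and -0.45.

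The order of T3 and the combination differed between replicate numbers. At 48 hours the combination was below T3 of the same number for 41, 42 and 42 of 45 members in replicates 1, 2 and 3. At 96 hours it was below T3 for 2, 44 and 45 members, with median differences of 0.22, -0.80 and -1.01. In replicate 1, then, 43 of 45 members read higher with both agents than with T3 alone. *Cdk1* read 9.91 with the combination and 9.72 with T3 in replicate 1, against 7.28 and 8.65 in replicate 2 and 8.18 and 9.30 in replicate 3.

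Oligodendrocyte markers were read in the same way. The mean of the 10 measured markers, such as the myelin genes *Mbp* and *Mag*, differed from the control of the same number at 96 hours by 1.39, 1.70 and 2.10 with T3, by 1.13, 1.41 and 1.66 with quetiapine and by 1.84, 2.32 and 2.52 with the combination, in replicates 1, 2 and 3. Replicate 1 was lowest here too, but the combination exceeded T3 in all 3 replicates. In the limma test at 96 hours all 10 rose with the combination, against 13.6% of probe sets called higher. With each single agent 8 of 10 rose, against 5.64% of probe sets for T3 and 3.65% for quetiapine. Whether the 2 sets of genes differ in how they vary between replicates was not tested.

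**Figure D5:**
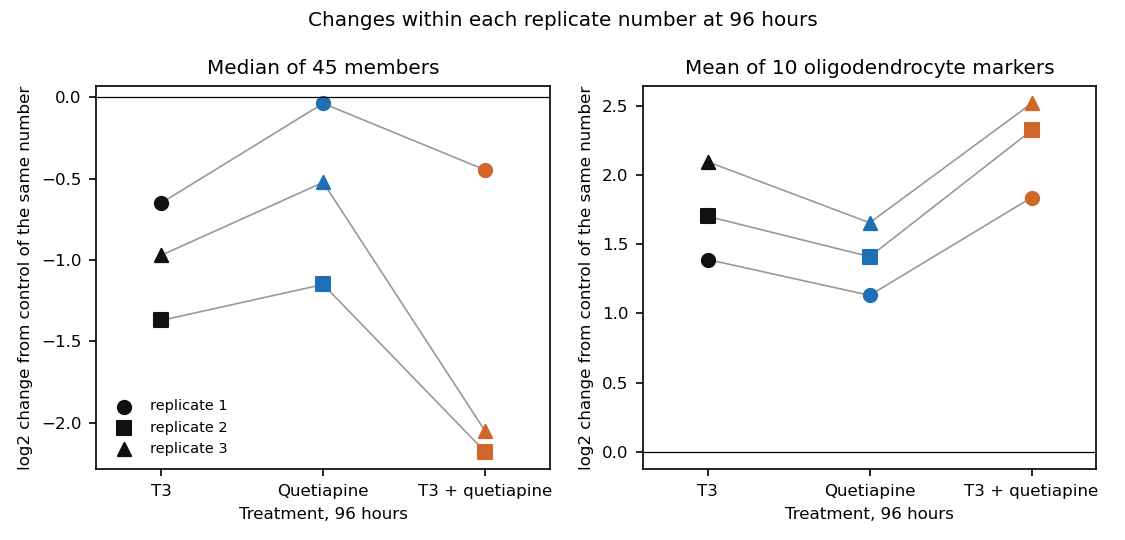
Log2 change at 96 hours from the control array of the same replicate number (y axis) for each treatment (x axis), as the median of the 45 members (left) and the mean of 10 oligodendrocyte markers (right). Symbols mark the replicate number. With the combination, replicate 1 was at -0.45 on the left and 1.84 on the right, against -2.18 and -2.05, and 2.32 and 2.52, in replicates 2 and 3.

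The spread between replicates differed between the times. The median residual SD of the 45 members was 0.185 at 48 hours and 0.660 at 96 hours, while that of all probe sets was 0.127 and 0.137. By group, the median SD of the members at 96 hours was 0.173 in the controls (n = 3 in each group). It was 0.461 for T3, 0.633 for quetiapine and 1.02 for the combination. At 48 hours the 4 groups had median SDs of 0.168 to 0.210. The median SD of the controls at 96 hours was thus within the range of the 48-hour groups, and those of the 3 treated groups were above it.

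Treatments were also compared with each other. None of the 45 members passed the limma test in these comparisons at either time. At 96 hours, the combination differed from T3 by a median of -0.55, where 0.734% of probe sets were called lower. With the block 0 members passed, against 6.57% of probe sets, and 1 had an unadjusted p under 0.05. The combination differed from quetiapine by a median of -0.97, where 3.79% of probe sets were called lower. With the block 30 members passed, against 11.1% of probe sets, and 20 had an unadjusted p under 0.05. Without replicate 1 of the combination, 35 members passed against quetiapine and 4 against T3. The share of all probe sets called without that array was not counted. With all 24 arrays in 1 fit 10 passed against quetiapine. Quetiapine was above T3 for all 45 members by a median of 0.42, where 0.789% of probe sets were called higher. With the block 1 member passed, against 5.54%, and 0 had an unadjusted p under 0.05.

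At 48 hours the differences between treatments were smaller. The combination differed from T3 by a median of -0.18, where 0.0193% of probe sets were called lower (0 members with the block against 0.635% of probe sets, 2 at an unadjusted p under 0.05). It differed from quetiapine by -0.31, where 0.229% were called lower (26 with the block against 4.17%, 18 at an unadjusted p under 0.05). Quetiapine lay above T3 by 0.14, where 0.528% were called higher (3 with the block against 4.45%, 1 at an unadjusted p under 0.05).

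Whether both agents together did more or less than the sum of each was tested as an interaction on the log2 scale. At 48 hours the 45 terms ran from -0.13 to 0.29 with a median of 0.08, and at 96 hours from -0.37 to 0.38 with a median of 0.02. None passed in the limma test, with or without the block, and 0 had an unadjusted p under 0.05. Over all probe sets the limma test called 0% at 48 hours, and at 96 hours 0.029% lower and 0.00322% higher, or 0.213% and 0.029% with the block. Every 95% interval of the fit without the block held 0, with a median half-width of 0.432 at 48 hours and 1.44 at 96 hours. At 96 hours the interval of that fit, which leaves the pairing of the replicates out, allowed a departure from additivity of more than 2-fold in either direction for most members. Intervals with the block were not computed.

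Between 48 and 96 hours, the control cultures differed by a median of -0.41 (1.33-fold), with all 45 members lower and 30 without overlap, against 5.79% of probe sets. None passed the limma test, against 0.00966% of probe sets called lower, none passed with the block, against 0.86%, and 2 had an unadjusted p under 0.05. With T3 the median difference was -1.02, and 6 of 45 passed, against 3.6% of probe sets, or 41 with the block, against 12.1%. The count of 6, from the fit without the block, rested on single arrays, and no array was left out of the fit with the block. It was 0 without replicate 1 of T3 at 48 hours or replicate 2 of T3 at 96 hours, and 1 without replicate 2 of T3 at 48 hours or replicate 3 of T3 at 96 hours. It was 3 without replicate 3 of T3 at 48 hours or without replicate 2 of the control, of quetiapine or of the combination at 48 hours. It was 12 without replicate 1 of T3 or replicate 2 of the combination at 96 hours, and 38 without replicate 1 of the combination at 96 hours. All 45 members had lower values on every T3 array at 96 hours than on any at 48 hours, against 14.1% of probe sets without overlap. With quetiapine the median was -0.71, with 0 past the test, against 0.68% of probe sets, 15 at an unadjusted p under 0.05 and 8 with the block, against 6.15%. With the combination it was -1.39 (2.62-fold), and 44 of 45 fell, against 12.5% of probe sets. That count was 11 without replicate 2 of the combination at 96 hours and 23 without its replicate 3.

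The difference in the treatment effect between the times was tested as well. The median of the change from control at 96 hours less that at 48 hours was -0.98 for the combination, -0.59 for T3 and -0.30 for quetiapine. None of the 45 passed in the limma test for any treatment, with 11, 0 and 0 at an unadjusted p under 0.05, and 2.27%, 0% and 0% of probe sets were called lower. With the block 8 passed for the combination, against 9.46% of probe sets, and 0 for each single agent, against 0.142% for T3 and 0.0773% for quetiapine. Without replicate 1 of the combination at 96 hours, 33 passed for the combination, and the share of all probe sets was not counted.

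Other genes of the same phase gave a wider picture. A second list held 84 further G2/M and mitosis genes, of which 74 were measured, such as *Cks2*, *Aspm* and *Kif15*. The combination lowered 26 and raised 1 at 48 hours, with a median change of -0.43, against 2.87% of all probe sets called lower and 2.62% higher. At 96 hours it lowered 44 and raised 2, with a median of -0.99, against 15.7% and 13.6% of probe sets. With the block 64 were lower and 4 higher, against 22.1% and 18.5%. With T3 at 96 hours 9 fell and 1 rose, against 6.07% and 5.64%, or 54 and 1 with the block, against 14.3% and 10.3%. With quetiapine 0 fell and 1 rose (*Plk4*, by 0.87), against 2.24% and 3.65%, with 10 at an unadjusted p under 0.05. With the block 6 fell and 3 rose, against 9.26% and 7.98%. *Cks2*, which encodes a small subunit that binds Cdk1, fell by 2.07 (limma adjusted p = 0.0189), and *Aspm*, a spindle pole protein, fell by 2.04 (adjusted p = 0.0199). The genes that rose with the combination at 96 hours were *Reep4*, which clears the endoplasmic reticulum from mitotic chromosomes, by 1.31 (adjusted p = 3.7e-05), and *Plk4*, the kinase of centriole duplication, by 0.53 (adjusted p = 0.0463). They were named after their values were seen.

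DNA replication and S phase genes, which act before G2, formed a separate list. Of 42 listed, 38 were measured, with a median residual SD of 0.318 at 96 hours. With T3 at 96 hours 18 of 38 fell with a median change of -0.65, against 6.07% of probe sets, and 33 fell with the block, against 14.3%. The median change of the 45 mitosis genes was -1.0 and 1 of them passed. With quetiapine 0 fell and 1 rose (*Fen1*, by 1.05), against 2.24% and 3.65% of probe sets, with a median of -0.25. At an unadjusted p under 0.05 there were 2, and 1 was lower with the block, against 9.26% of probe sets. The combination lowered 28 and raised 1, against 15.7% and 13.6%, with a median of -0.84. In replicate 1 the mean of the 38 genes at 96 hours was 0.39 below its control with the combination and 0.60 below with T3, so the order of these treatments in that replicate was the same as for the mitosis genes.

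Markers of other cells were read beside these changes. At 96 hours the combination lowered 4 and raised 1 of 9 astrocyte markers, 3 and 1 of 8 neuron markers and 1 and 1 of 7 OPC markers, where 15.7% of all probe sets were called lower and 13.6% higher. T3 lowered 1 and raised 2 astrocyte markers, lowered 3 neuron markers and lowered 1 OPC marker (6.07% and 5.64% of probe sets), and quetiapine lowered 1 of each list and raised none (2.24% and 3.65%). Against the control of the same number, the mean of the astrocyte markers differed by -0.83, -0.63 and -0.72 with the combination, by -0.82, -0.39 and -0.73 with quetiapine and by -0.22, -0.04 and -0.02 with T3, in replicates 1, 2 and 3. The mean of the neuron markers differed by -0.50, -0.51 and -0.76 with the combination, by -0.39, -0.24 and -0.49 with quetiapine and by -0.41, -0.36 and -0.35 with T3. Both marker lists were thus below the control of the same number in all 3 replicates of each treatment. Their mean log2 values were 11.1 to 11.6 and 8.24 to 8.67 in the controls, and 10.3 to 10.9 and 7.73 to 7.97 with the combination. The mean of the OPC markers differed by -0.63, -0.28 and -0.21 with the combination and by -0.45, -0.34 and -0.30 with T3. With quetiapine it differed by -0.25, 0.08 and -0.01, so that replicate 2 was above its control. None of the 10 microglia markers passed the limma test in any comparison of a treatment with control, and 0 had an unadjusted p under 0.05. As a sign of RNA quality, the log2 signal of the 3′ probe set of beta-actin less that of the 5′ probe set was 0.643 to 0.665 in the controls, 0.674 to 0.766 with T3, 0.601 to 0.723 with quetiapine and 0.704 to 0.768 with the combination. The same difference for GAPDH at 96 hours was -0.107 to -0.057 in the controls and -0.076 to -0.027 with T3. It was -0.113 to -0.073 with quetiapine and -0.132 to -0.092 with the combination, so GAPDH did not rise with the combination as beta-actin did. The part of these differences in the result was not tested.

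The members had 18 further single-symbol probe sets, from 14 genes. All 18 had the same sign of change as the one used with T3 and with the combination against control at both times. For quetiapine against control 17 had the same sign at 48 hours and 18 at 96 hours. Between treatments, 16 had it at 48 hours and 15 at 96 hours for the combination against T3, 16 and 17 for quetiapine against T3, and 18 at both times for the combination against quetiapine. For the interaction it was 15 and 12. Fewer of them passed than of the probe sets used. With the combination against control, 1 of 18 was lower past the test at 48 hours, against 2.87% of probe sets, and 8 at 96 hours, against 15.7%. There were 6 comparisons of a treatment with control. Without the block, 38 of the 45 members passed in at least 1 of them and 7 in none, and no member passed in the upward direction. With the block all 45 passed with the combination at 96 hours.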

How the data were processed

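Affymetrix rat expression arrays of 24 cultures were analysed, 3 in each of 8 groups. The authors deposited log2 expression values per probe set after RMA normalization of all arrays. RMA and limma are named in the submitters' processing notes without versions. Day 0 cultures were not analysed here, and no source used here gives a genome build. RMA draws arrays to 1 distribution, so a change in total RNA per cell is not visible, and precision is limited by how many arrays each group has.

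Of 31099 probe sets, 57 controls were left out and 31042 were tested. The array annotation gave 1 symbol to 20826, several to 436 and none to 9780. Each time was fitted alone with limma 3.58.1 (R 4.3.3) on 12 arrays, with 4 group means sharing the spread. Comparisons between times used all 24 arrays. P-values were adjusted by Benjamini-Hochberg over all 31042 probe sets, and 0.05 was the threshold. Counts at an unadjusted p under 0.05 are given without the share of all probe sets, which was not counted for that rule. The fits were tested on simulated data. Figures were drawn with matplotlib 3.10.9 in Python 3.11.15.

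Replicate numbers come from the labels, and the design text ties them to 3 biological replicates. Deviations from group means correlated by 0.430 to 0.777 (18 pairs) between arrays of the same number at 48 hours and by 0.309 to 0.690 at 96 hours, against -0.681 to -0.00478 and -0.583 to 0.243 for other pairs, so the numbers were taken to pair the cultures. The main fit was planned without a block, since the study's methods state none for the arrays. This is so although the design text ties the numbers to 3 biological replicates. The main fit leaves this pairing out, so adjusted p-values given without naming the block are those of an unpaired test. The fit with the block uses the pairing, and its counts are given beside those of the main fit. For T3 against control the members lower without and with the block were 0 and 39 at 48 hours, and 1 and 38 at 96 hours. A member that did not pass the main fit is therefore not shown to be unchanged.

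Named members were the 3 with the largest change of the combination at 96 hours in each role, *Mki67*, *Cdk1*, *Ccnb1*, *Plk1*, *Aurkb* and *Foxm1*, and any that passed in the opposite direction or in no comparison of a treatment with control, 31 in all. Others (*Bub3*, *Espl1*, *Smc4*, *Ncaph*, *Cks2*, *Aspm*, *Kif15*) were named after their values were seen. The members and lists were chosen with earlier results of these data known. Alternatives were the replicate block, 1 fit of all arrays, a filter on low values (log2 of 6 or more on 3 arrays), a fold over 1.5, the mean of all probe sets of a gene, centring of arrays, leaving out each array and, chosen after seeing the data, leaving out replicate 1 of every group. Each alternative other than the block was fitted without the block, so calls that held or were lost with an array left out are those of the unpaired fit. Promoter motifs were not analysed here.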

Additional observations from a re-analysis of the deposited data

Results flagged for a closer look

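Of the genes in the lists of other G2/M genes and of DNA replication genes, *Plk4* and *Fen1* differed between times in the effect of the combination, by a test of that difference, and in the direction opposite to most listed genes. Over all probe sets that test called 4.15% higher. Among the 74 and 38 measured genes of the lists, *Plk4* and *Fen1* were not above that share. *Plk4*, the kinase of centriole duplication, differed from control by -0.61 at 48 hours and by 0.53 at 96 hours, a difference of 1.14 (SE 0.259, limma adjusted p = 0.0117). *Fen1*, a nuclease of DNA replication and repair, was at -0.34 and 1.09, a difference of 1.42 (SE 0.321, limma adjusted p = 0.0115). Both genes were also higher than control with quetiapine alone at 96 hours, where 3.65% of probe sets were called higher. *Plk4* rose by 0.87 (limma adjusted p = 0.0183) and *Fen1* by 1.05 (limma adjusted p = 0.0409), so the rise was not particular to the combination.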

How the results depend on the processing

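The counts of members past the limma test depended on the fit and on single arrays. Directions against control held for all but 1 of the 31 named members. Directions of single members in the other comparisons were not followed through these alternatives. With the replicate block, which pairs cultures of 1 number, the counts were 39 for T3, 5 for quetiapine and 43 for the combination against control at 48 hours, 3 for quetiapine against T3 and 26 for the combination against quetiapine at 48 hours, 38 for T3 against control at 96 hours, 1 for quetiapine against T3 and 30 for the combination against quetiapine at 96 hours. They were 41 for T3 and 8 for quetiapine between times, and 8 for the change of the combination's effect with time. No other call count moved by over 1.5 times with the block. With all 24 arrays in 1 fit, the combination at 48 hours gave 0, T3 at 96 hours 14 and the combination against quetiapine at 96 hours 10. The filter on low values kept 18914 probe sets and all 45 members, and gave 2 for T3 at 96 hours, 1 for the combination against quetiapine at 96 hours, 10 for T3 between times and 1 for the combination's effect with time. Asking for a fold over 1.5 left 16 for the combination at 48 hours, and the mean of all probe sets of a gene left 0 for T3 at 96 hours. Centring the arrays moved no count by over 1.5 times. Except for the block and the fold rule, the share of all probe sets called under these alternatives or with arrays left out was not counted. The cause of these moves was not tested.

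Leaving out replicate 1 of every group, chosen after seeing the data, gave 6 for the combination at 48 hours, and at 96 hours 16 for T3, 1 for quetiapine, 3 for the combination against T3 and 24 for the combination against quetiapine. It gave 29 for T3 and 8 for quetiapine between times and 17 for the combination's effect with time. The combination at 96 hours and the combination between times each gave 44.

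Leaving out 1 array at a time gave 2 to 25 for the combination at 48 hours and, at 96 hours, 0 to 14 for T3, 7 to 44 for the combination, 0 to 4 for the combination against T3 and 0 to 35 for the combination against quetiapine. Between times it gave 0 to 38 for T3, 0 to 4 for quetiapine and 11 to 44 for the combination, and for the combination's effect with time 0 to 33. Each of these highest counts, other than at 48 hours and for the combination between times, came without replicate 1 of the combination at 96 hours. Of the named members called with the combination, 1 of 17 at 48 hours (*Racgap1*) and 4 of 22 at 96 hours (*Aurkb*, *Foxm1*, *Kif23* and *Mki67*) passed whichever array was left out. *Mad2l1* with quetiapine, which passed in no fit here, changed sign at 48 hours to 0.11 without replicate 3 of the control and 0.07 without replicate 1 of quetiapine (lowest -0.18), and at 96 hours to 0.0095 without replicate 2 of quetiapine (lowest -0.37). The motif count planned for promoters was not run.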
